A study of Mus musculus with 2 samples.

Results

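The genes described here are the expressed antisense RNA genes of mouse pro-B cells. A gene was a member if GENCODE M21 gives it the biotype antisense, if it lies on chromosomes 1 to 19, and if any of its transcripts reached 3 RPKM (reads divided by transcript length in kilobases and by sequencing depth) in either library. Of 1723 antisense genes on those chromosomes with a transcript in the deposited table, 255 met the rule, out of 37002 genes of all kinds, after 2 genes were set aside by name. The members were thus chosen by their RPKM values, and their presence above 3 RPKM is a description and not a result. The study compared cells with undeleted Setdb1 alleles, labelled Setdb1 C/C, with cells labelled Setdb1 Δ/Δ, in which the gene is deleted. Setdb1 encodes a histone H3 lysine 9 methyltransferase. Both groups carried a bcl2 transgene, and both were bone marrow pro-B cells, the B cell precursors that rearrange the immunoglobulin heavy chain locus, purified by cell sorting and grown with interleukin 7 at 5 ng/µl until day 4. The labels give no age, sex or strain, and they do not name the Cre driver or the promoter of the transgene. There was 1 library per group (2 in all), made from ribosome-depleted total RNA, so replicate error is unknown for every difference below and no p-values are printed.

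Antisense RNA genes are transcribed from the DNA strand opposite to a protein-coding gene that they overlap. Some are known to act on the chromatin or the transcription of the gene they overlap, some work elsewhere in the cell, and for most no function is known. Divergent pairs start back to back from a shared promoter region, convergent pairs run into each other at their ends, and embedded antisense genes lie within the body of the coding gene. The kit named in the labels' protocols (TruSeq RNA Sample) does not mark the strand of a read. Reads of an antisense gene and reads of the coding gene across it, spliced or unspliced, therefore cannot be told apart in any value below.

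The depth, worked out from the step between low RPKM values, came to 170.641 M (mega) reads in C/C and 193.253 M in Δ/Δ, so that 3 reads on 500 bases correspond to 0.0352 and 0.0310 RPKM. Intervals below are exact 95% intervals of the Δ/Δ level divided by the C/C level and cover counting error only. Setdb1 itself measured 17.0 RPKM in C/C against 12.6 in Δ/Δ, or 0.743 times the C/C level (0.717 to 0.770). The labels do not name the deleted exons, so this level is no measure of deletion. Of 12 pro-B cell markers, all at 1 RPKM or more, 4 were lower and 0 higher by the 2-fold rule given below, and their summed level was 4673 RPKM in C/C against 3388 in Δ/Δ. Several markers of other blood cells were higher in Δ/Δ. Myeloid markers summed to 27.5 and 248 RPKM (7 of 12 higher, Mpo and Elane at 0 in C/C), and erythroid and megakaryocyte markers to 9.26 and 77.7 RPKM (6 of 10 higher, none at 0). Dendritic cell markers summed to 467 and 386 RPKM (5 of 8 higher, none at 0), and T cell markers to 44.4 and 70.7 RPKM (2 of 8 higher, Cd3e at 0 in C/C). Most of the dendritic sums came from Cst3 (175 and 144 RPKM) and Irf8 (290 and 229 RPKM), neither of which was called. Mast cell markers summed to 4.42 and 4.15 RPKM (1 of 5 higher, Mcpt8, Prss34 and Ms4a2 at 0 in C/C), and NK cell markers to 2.05 and 1.56 RPKM (0 of 5 called, Ncr1 and Gzma at 0 in both libraries). Kit made up nearly all of the mast cell sum in C/C (4.42 RPKM, against 2.235 RPKM in Δ/Δ). The part of other cells in the differences below was not tested. In bulk RNA, fewer cells of a type and less RNA per cell cannot be told apart either.

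Most members were short gene models. Of the 255, 228 carry a model name (175 Gm, 51 Rik and 2 BC) and 27 a proper name, 21 of which end in "os" for opposite strand and 3 in "os" with a number. The transcript that stood for each gene, the one of highest mean RPKM, was 108 to 5831 bases long with a median of 682, and 20 had 1 exon, 114 had 2 and 121 had more. Members lay on all the autosomes, with 36 on chromosome 11 and 22 on chromosome 4. A single opposite coding gene was overlapped by 204 members, more than 1 by 48, and none by 3 (Gm12735, Gm12493 and Gm12679). Of all exonic bases of the members, 35.6% lay in exons of a protein-coding gene, 41.5% in coding gene introns and 22.9% outside coding genes. Only 17 members had no base in any coding exon, and 19 lay wholly in coding exons. Of the 252 members with an opposite coding gene, 110 were inside it, 71 overlapped it end to end, 53 start to start, and 18 contained it. Start to start means only that each start lies within the span of the other gene. The starts lay within 1000 bases of each other in 37 of the 252 pairs, so not every start-to-start pair has nearby starts. Those 252 pairs held 249 distinct coding genes, since Adam19, Tmc8 and Pi4kb each faced 2 members.

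Promoter windows from RefSeq (GRCm38.p6, 250 bases before to 50 after the annotated start) could be matched by symbol for 80 members, and for 48 of these the annotated start lay within 100 bases of the start of the transcript used here. The 5 windows below belong to members that the results turn on: 3 whose difference between libraries was far from that of the coding gene they overlap (Gm13012, Gm16252 and Gm26782), 1 within a B cell transcription factor gene (Bach2os), and Tug1, a widely studied long RNA. Each is written 5′ to 3′ on the gene's own strand, with every CG, the dinucleotide at which mammalian DNA is methylated, in capitals.
Gm13012, chr4:137883913-137884212, minus strand: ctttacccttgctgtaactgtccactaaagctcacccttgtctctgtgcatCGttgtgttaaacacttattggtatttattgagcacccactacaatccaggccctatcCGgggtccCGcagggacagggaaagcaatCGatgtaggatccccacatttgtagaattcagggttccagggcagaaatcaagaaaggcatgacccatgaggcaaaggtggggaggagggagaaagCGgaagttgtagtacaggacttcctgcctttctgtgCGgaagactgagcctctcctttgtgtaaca
Bach2os, chr4:32571613-32571912, minus strand: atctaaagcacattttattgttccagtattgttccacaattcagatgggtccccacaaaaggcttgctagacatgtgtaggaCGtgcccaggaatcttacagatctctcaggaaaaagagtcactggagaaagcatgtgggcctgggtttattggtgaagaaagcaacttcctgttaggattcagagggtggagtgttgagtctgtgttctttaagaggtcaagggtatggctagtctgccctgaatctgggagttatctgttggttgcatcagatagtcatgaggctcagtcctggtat
Gm16252, chr9:103471799-103472098, plus strand: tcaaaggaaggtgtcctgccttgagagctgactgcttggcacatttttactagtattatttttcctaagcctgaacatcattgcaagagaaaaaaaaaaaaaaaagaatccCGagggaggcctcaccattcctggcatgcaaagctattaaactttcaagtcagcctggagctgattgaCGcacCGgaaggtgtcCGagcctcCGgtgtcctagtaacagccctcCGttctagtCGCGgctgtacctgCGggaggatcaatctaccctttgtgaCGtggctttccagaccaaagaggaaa
Gm26782, chr14:50870046-50870345, plus strand: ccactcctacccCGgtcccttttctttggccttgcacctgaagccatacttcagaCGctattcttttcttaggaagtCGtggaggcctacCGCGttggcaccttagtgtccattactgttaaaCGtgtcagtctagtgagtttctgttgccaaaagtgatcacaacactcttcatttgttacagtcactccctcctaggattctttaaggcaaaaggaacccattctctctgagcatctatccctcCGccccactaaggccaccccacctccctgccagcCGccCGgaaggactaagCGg
Tug1, chr11:3648765-3649064, minus strand: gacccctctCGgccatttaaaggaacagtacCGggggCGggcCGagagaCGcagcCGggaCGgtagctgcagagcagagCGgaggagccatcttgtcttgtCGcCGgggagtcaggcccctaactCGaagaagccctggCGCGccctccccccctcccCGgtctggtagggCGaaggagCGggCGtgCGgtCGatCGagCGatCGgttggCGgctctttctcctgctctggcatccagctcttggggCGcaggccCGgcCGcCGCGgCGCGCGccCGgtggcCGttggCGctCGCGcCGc
The windows hold 6, 1, 10, 10 and 37 CG respectively. The median of the 48 member windows was 16 CG, and that of all 32851 RefSeq windows was 7. At least 20 CG were present in 21 of the 48 (43.75%) and in 26.5% of all windows. Member windows of end-to-end pairs had a median of 25 CG (n = 25), those of start-to-start pairs 17 (n = 12), and those of members inside a coding gene 6 (n = 9). The 48 windows do not stand for all members, since 71 of the 252 pairs were end to end and 110 had the member inside. The set of all RefSeq windows was also not filtered by RPKM, while the members were. The part of these limits in the difference from all windows was not tested. The letters TATAAA, searched on both strands, were in 3 of the 48 windows (6.25%) and in 13.6% of all windows, and in none of the 5 printed. The letters CCAAT, searched likewise, were in 19 of the 48 (39.6%) and in 37.4% of all, and in those of Gm13012 and Bach2os among the 5. These matches describe the letters of the windows and show no binding.

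As a set, the members were slightly lower in Δ/Δ than in C/C. Their median level was 6.62 RPKM in C/C against 5.31 in Δ/Δ. On the scale used throughout, log2((Δ/Δ + 0.5) / (C/C + 0.5)) of RPKM, which understates changes of genes near 0, the median of the members was -0.22 (quartiles -0.54 and 0.07; -0.13 after centring on the median of all genes), beside -0.09 over all 10392 genes at 3 RPKM or more and -0.08 over the 9316 protein-coding ones. The value was negative in 177 members (69.4%), beside 57.7% of all genes at 3 RPKM. In place of a test, a gene is called higher or lower when the log2 ratio is at least 1 or at most -1, a 2-fold difference on that scale. By this rule 18 members were lower (7.06%; background 6.16% of all genes at 3 RPKM) and 6 were higher (2.35%; background 5.37%), and 231 were within the rule. Of protein-coding genes 4.57% were lower and 4.58% higher. Of the 95 intergenic long non-coding (lincRNA) genes on the same chromosomes at 3 RPKM, 9.47% were lower and 15.8% higher. The share of members called lower was thus near the background. With 0.1 RPKM added in place of 0.5, 28 members were lower (11.0%; background 6.96%) and 7 higher (2.75%; background 5.83%). At a threshold of 1 RPKM, 29 of 418 antisense genes were lower (6.94%; background 6.66% of 12577 genes) and 11 higher (2.63%; background 6.27%).

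**Figure D1:**
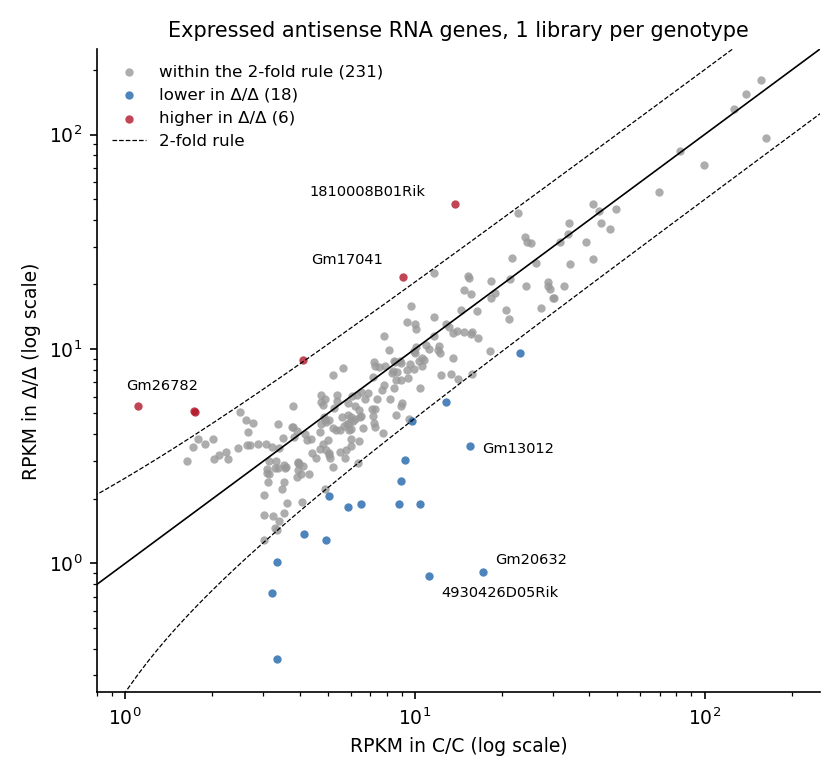
RPKM of the 255 members in C/C (x axis) and Δ/Δ (y axis), both log scales, 1 point per gene, with a solid line at equal levels, dashed lines at the 2-fold rule and some called members labelled. Most points sit near equal levels, 18 are called lower and 6 higher.

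How a member passed the 3 RPKM threshold bears on its call. In both libraries 188 members passed, 47 passed in C/C only and 20 in Δ/Δ only. Among the 18 lower members 13 passed in C/C only, and among the 6 higher members 3 passed in Δ/Δ only. For a gene just above the threshold in 1 library, passing only there means a lower value in the other, so these counts are not support for a direction. The 188 members that passed in both had a median of -0.19, with 5 lower (2.66%) and 3 higher (1.60%), beside 3.42% lower and 3.23% higher of the 9258 genes of all kinds that passed in both, whose median was -0.09. Just inside the threshold stood 2610020C07Rik (1.63 RPKM in C/C against 3 in Δ/Δ), Gm15965 (3.004 and 1.68), Gm12735 (3.02 and 2.08), Gm15978 (3.03 and 1.29) and Gm26574 (2.26 and 3.08). Just outside it stood Gm9754 (2.98 RPKM in C/C against 2.07 in Δ/Δ), A430057M04Rik (1.91 and 2.95), Gm20633 (2.93 and 1.30), Gm9917 (2.90 and 2.02) and Gm12000 (2.90 and 1.51), the last of which overlaps Ikzf1, the lymphoid factor Ikaros (144 and 94.5 RPKM).

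The main comparison of the set was with the coding gene each member overlaps. Of the 249 distinct coding genes, 17 were lower (6.83%) and 4 higher (1.61%) in Δ/Δ, beside 4.57% and 4.58% of protein-coding genes at 3 RPKM. The overlapped coding genes passed no RPKM filter of their own, and Folr2, for example, measured 0.0760 and 0.182 RPKM. The shares of the 2 sets are therefore not like for like. The median log2 ratio of the coding gene over the 252 pairs was -0.10. In 14 pairs the antisense and the coding gene were both lower, in 2 both were higher, and in 0 were they called in opposite directions. In 4 pairs the antisense gene alone was lower, and in 4 it alone was higher. Among the 186 pairs whose antisense gene passed 3 RPKM in both libraries, both genes were lower in 4 and higher in 2, and Pearson's r of the log2 ratios was 0.67. In 194 pairs (77.0%) the log2 ratios had the same sign, and in 212 they lay within 0.5 of each other. Across the 252 pairs, Pearson's r of the log2 ratios was 0.75 and Spearman's rank coefficient 0.69. This is a description across genes of the same 2 libraries, and members and coding genes share bases and reads. The r was 0.82 over the 153 pairs whose transcripts share exonic bases, 0.65 over the 99 that share none, and 0.39 (rank coefficient 0.15) over the 14 members with a pair but no base in any coding exon. By position, r was 0.84 for members inside a coding gene, 0.75 for start-to-start pairs, 0.60 for end-to-end pairs and 0.71 for members that contain the coding gene. The rank coefficients were 0.81, 0.61, 0.64 and 0.40 in the same order. Of the 18 members that contain the coding gene, 10 (55.6%) had a log2 ratio of the same sign as it.

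**Figure D2:**
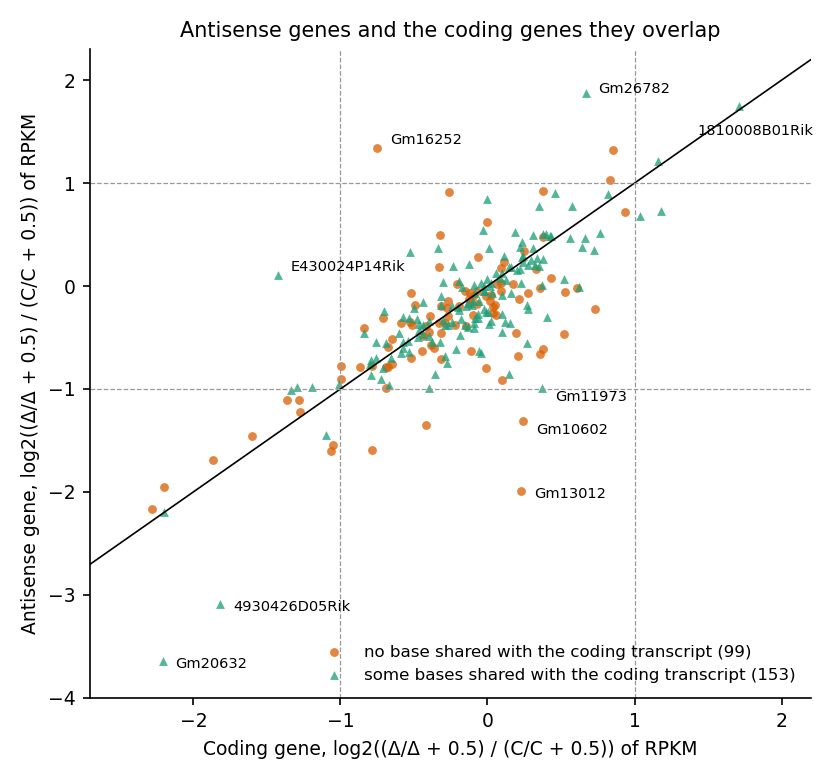
Log2 ratio of the 2 libraries (0.5 RPKM added to each) for 252 antisense genes (y axis) and for the coding gene each overlaps (x axis), with the 153 pairs that share bases of the transcripts used as triangles, the 99 that do not as circles, a solid line at equal ratios and dashed lines at 2-fold. Most pairs lie near the solid line, Gm13012 lies far below it and Gm16252 far above it.

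The level of a member was usually a fraction of that of its coding gene. In both libraries 210 members were below the coding gene and 34 above it, and the median ratio of the 2 RPKM values was 35.9% in C/C and 34.1% in Δ/Δ. Taking the most abundant transcript lifts the level of genes with many listed transcripts. H3f3a, for example, measured 4549 RPKM in C/C by that transcript and 811 RPKM by its longest. How far this choice lowers the ratio was not tested. To see how far reads of the coding gene alone could fill a member, the coding gene's RPKM was multiplied by the exonic bases shared and divided by the member's RPKM times its length. A quotient of 1 or more means that the member's reads are no more than the coding gene's read density over the shared bases. In 25 pairs (9.92%) it was 1 or more in both libraries, among them Cdk19os (1.66 in C/C and 1.76 in Δ/Δ), Taco1os (1.12 and 1.32) and Ube4bos1 (1.14 and 1.11). With the exons of all transcripts of the coding gene in place of 1 transcript, still at the RPKM of its most abundant one, 109 pairs reached it. None of the 24 called members was among the 25, and 16 of the 24 share no exonic base with the transcript that stood for the coding gene. With the exons of all its transcripts, 5 of the 24 share none, and 10 of the 24 reached a quotient of 1 in both libraries. Among these were the lower members Bach2os, Gm20531, Gm16033, Gm16034, H3f3aos and Gm14302, and the higher members Gm17103 and Gm16277. Reads from introns of the coding gene are not in this quotient and were not tested.

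**Figure D3:**
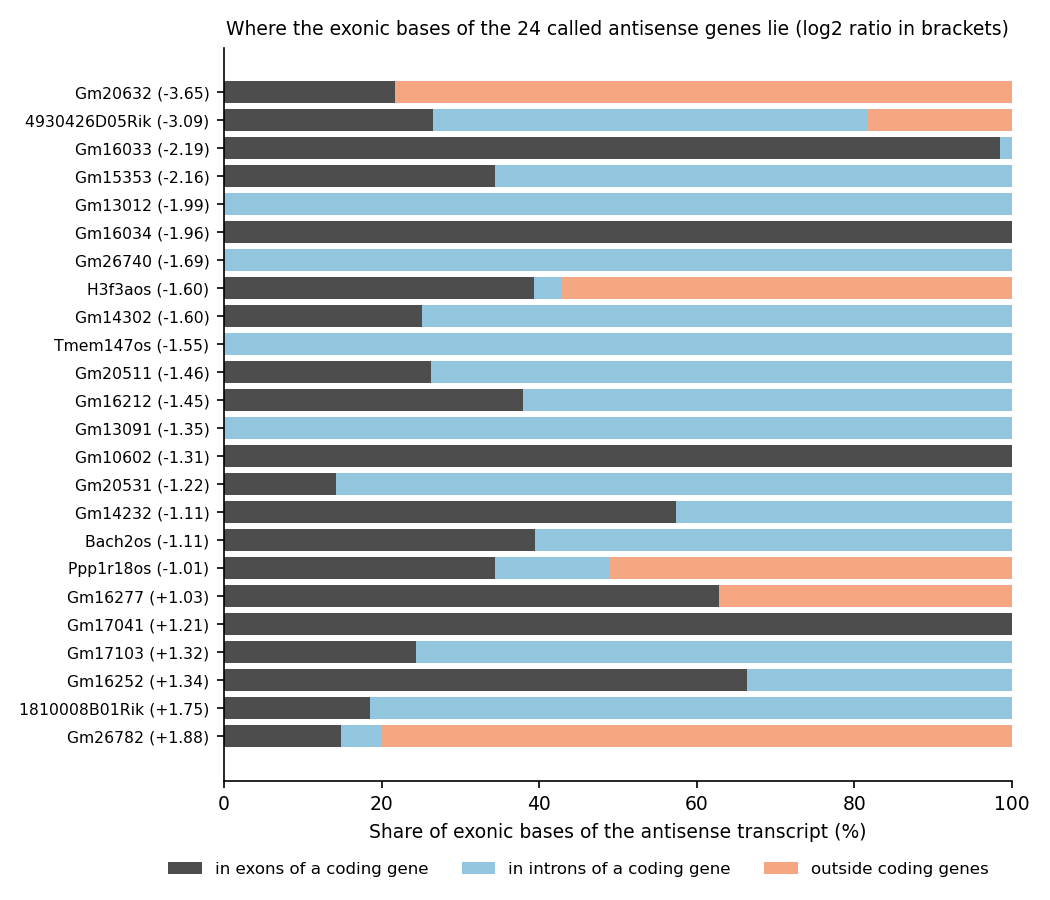
Share of the exonic bases (x axis, percent) of each of the 24 called antisense transcripts that lies in exons of protein-coding genes (dark), in their introns (blue) and outside them (orange), with the log2 ratio of each gene in brackets. Gm13012, Gm26740, Tmem147os and Gm13091 lie wholly in introns, and Gm16034, Gm10602 and Gm17041 wholly in coding exons.

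Of the 11 lower members that lie inside a coding gene, 8 lay in a gene that was lower too, and Bach2os, Gm20531 and Gm20511 are among these. Bach2os (chromosome 4, 32559680 to 32571708, minus strand) lies in Bach2, a transcription factor gene of the B lineage. It measured 12.8 RPKM in C/C against 5.66 in Δ/Δ, a log2 ratio of -1.11, with a ratio of 0.443 (0.391 to 0.502). Its other listed transcripts were at -1.21 and, within the rule, at -0.27 (1.98 RPKM in C/C against 1.55 in Δ/Δ). Bach2 measured 52.6 RPKM in C/C against 21.3 in Δ/Δ, a log2 ratio of -1.28. The 2 transcripts used share no exonic base, but 39.4% of the bases of Bach2os lie in exons of coding transcripts. Gm20531 lies in Ptpn6, which encodes the phosphatase SHP-1 of immune receptor signalling. Its level was 23.0 RPKM in C/C against 9.59 in Δ/Δ (log2 ratio -1.22), beside 251 RPKM and 103 RPKM for Ptpn6 (-1.27). Gm20511, in Fmnl1, a formin of blood cells, measured 9.21 RPKM in C/C against 3.04 in Δ/Δ (-1.46), and Fmnl1 measured 30.2 and 9.64 RPKM (-1.60). In these 3 pairs antisense and coding gene differed by nearly the same factor.

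Gm16033 and Gm16034, both on chromosome 11 and on the same strand, lie in Adam19, a membrane metalloprotease gene, and share 349 exonic bases with each other, so they are not separate observations. Coding exons cover 98.5% of the bases of Gm16033 and all those of Gm16034. Gm16033 measured 10.4 RPKM in C/C against 1.88 in Δ/Δ (log2 ratio -2.19). Gm16034 measured 8.80 RPKM in C/C against 1.90 in Δ/Δ (-1.96). Adam19 itself measured 12.9 and 2.41 RPKM (-2.20), so all of them were lower by a similar factor. Gm15353, in Mcf2l, measured 3.34 RPKM in C/C against 0.359 in Δ/Δ (-2.16), beside 6.74 and 0.991 RPKM for Mcf2l (-2.28). At 26 reads in Δ/Δ, its ratio of 0.107 had an interval of 0.0553 to 0.191. 4930426D05Rik, which starts near Klhl14, a Kelch-like gene of B cells, measured 11.2 RPKM in C/C against 0.869 in Δ/Δ (-3.09). Klhl14 measured 3.75 and 0.706 RPKM (-1.82), and the log2 ratios differ by -1.28.

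Gm16212 lies inside Rtkn2. It measured 5.88 RPKM in C/C against 1.83 in Δ/Δ (log2 ratio -1.45), and Rtkn2 measured 10.3 and 4.55 RPKM (-1.10). The antisense transcript shares 107 of its exonic bases (37.9%) with the coding transcript, and the quotient defined above was 0.665 in C/C and 0.942 in Δ/Δ. The shared stretch, all of it coding sequence of Rtkn2, is printed because reads from it could come from either gene, in GRCm38 on the strand of the antisense transcript, with the shared bases in capitals and the flanks in lower case.
Gm16212 and Rtkn2, chr10:68025513-68025619, minus strand: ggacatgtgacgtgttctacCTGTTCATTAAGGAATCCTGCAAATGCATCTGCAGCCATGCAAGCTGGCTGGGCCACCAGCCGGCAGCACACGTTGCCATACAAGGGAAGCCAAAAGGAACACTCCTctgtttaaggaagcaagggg

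The remaining lower members with a lower coding gene lay at loci of varied function. H3f3aos starts next to H3f3a, a histone H3.3 gene, and measured 4.94 RPKM in C/C against 1.29 in Δ/Δ (log2 ratio -1.60). H3f3a measured 4549 and 2177 RPKM (-1.06), and by its longest transcript H3f3aos was at -0.73 and was not called. Of the 7 H3f3a transcripts at 1 RPKM or more, 2 were within the rule, and the longest was at -0.96. Tmem147os contains Gapdhs, the sperm form of glyceraldehyde phosphate dehydrogenase, and measured 6.50 RPKM in C/C against 1.90 in Δ/Δ (-1.55), beside 2.27 and 0.836 RPKM for Gapdhs (-1.05). Of the 3 Gapdhs transcripts at 1 RPKM or more, 2 were within the rule, and the longest was at -0.83. Gm26740 lies in Raet1e, a ligand gene of the NKG2D receptor, and measured 8.92 RPKM in C/C against 2.41 in Δ/Δ (-1.69), beside 1.80 and 0.132 RPKM for Raet1e (-1.86) and 0.279 and 0.583 RPKM for H60b (0.48), the other coding gene across it. Raet1e has close paralogues nearby, so the placing of reads among them is uncertain. Ppp1r18os, which contains Nrm, the gene of the nuclear envelope protein nurim, measured 9.81 RPKM in C/C against 4.63 in Δ/Δ (-1.01), and Nrm measured 64.6 and 25.3 RPKM (-1.34). The other coding gene across it, Ppp1r18, measured 37.6 and 27.9 RPKM (-0.42) and was not called. Ppp1r18os was at -0.91 after centring on the median of all genes and lost its call. Gm14232, outside the naming rule and named here after its values were seen, measured 5.03 RPKM in C/C against 2.06 in Δ/Δ (-1.11) beside Spef1, a gene of sperm flagella (11.4 and 4.13 RPKM, -1.37). It also overlaps 1700037H04Rik, which measured 20.3 and 19.5 RPKM (-0.06). With 1 RPKM added, Gm14232 and Ppp1r18os were at -0.98 and -0.94.

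The lowest log2 ratio of the set belonged to Gm20632, whose values are uncertain because it spans a histone gene, Hist2h2aa2, with a near-identical copy. It measured 17.1 RPKM in C/C against 0.910 in Δ/Δ (log2 ratio -3.65; ratio 0.0531, interval 0.0462 to 0.0611). Hist2h2aa2 measured 6.56 and 1.03 RPKM (-2.21), and the copy Hist2h2aa1, which lies nearby but outside Gm20632, measured 72.2 and 0.643 RPKM (-5.99). Reads of the copies can be placed on either, and how the authors placed them is not given in the sources used here.

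**Figure D4:**
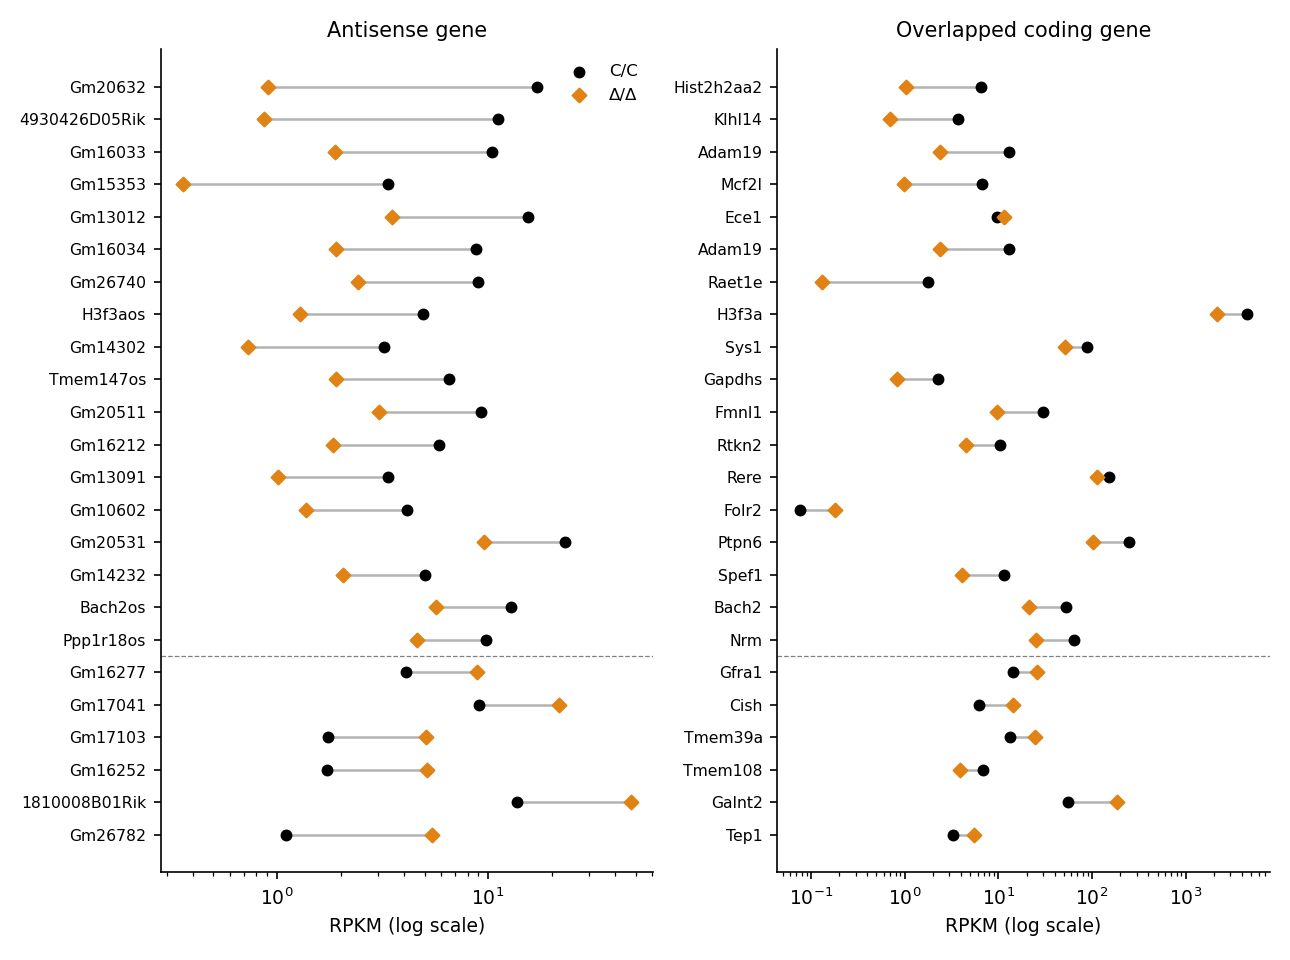
RPKM (x axes, log scales) in C/C (black circles) and Δ/Δ (orange diamonds) of the 24 called antisense genes (left) and, in the same order, of the coding genes they overlap (right), with a dashed line between the 18 lower and the 6 higher ones. Circle and diamond stand in the same order on both sides in most rows, while Ece1 is nearly level beside Gm13012, and Tmem108 is lower in Δ/Δ beside a higher Gm16252.

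In 4 pairs the antisense gene was called lower and the coding gene was not. Gm13012 (ENSMUSG00000085823.7, chromosome 4, 137882370 to 137883937, minus strand) lies wholly in an intron of Ece1, the endothelin-converting enzyme gene. It measured 15.5 RPKM in C/C against 3.51 in Δ/Δ, a ratio of 0.227 (0.198 to 0.258) and a log2 ratio of -1.99. Ece1 measured 9.64 RPKM in C/C against 11.4 in Δ/Δ, a ratio of 1.18 (0.946 to 1.48) and a log2 ratio of 0.23. The 2 log2 ratios differ by -2.23, the widest gap among the 252 pairs. All 3 listed transcripts of Gm13012 at 1 RPKM or more were lower, by log2 ratios of -2.35 to -1.78, while those of Ece1 lay between 0.23 and 0.30. Gm13012 shares no base with any coding exon.

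Gm14302, in Sys1, a Golgi trafficking gene, measured 3.22 RPKM in C/C against 0.731 in Δ/Δ (log2 ratio -1.60), and Sys1 measured 88.7 and 51.2 RPKM (-0.79). Gm13091, in Rere, a transcriptional co-repressor gene, measured 3.35 RPKM in C/C against 1.01 in Δ/Δ (-1.35), and Rere measured 150 and 112 RPKM (-0.42). By the transcripts used, both coding genes were lower in the same direction by less than the rule. Of the 7 Sys1 transcripts at 1 RPKM or more, 6 were within the rule, and the lowest was at -1.76. Gm10602 was paired with Folr2, a folate receptor gene that was nearly silent (0.0760 and 0.182 RPKM). The antisense gene measured 4.14 RPKM in C/C against 1.37 in Δ/Δ (-1.31). It lies wholly in coding exons and also overlaps Inppl1, which encodes the lipid phosphatase SHIP2 and measured 14.8 and 5.80 RPKM (-1.28), a change of nearly the same size.

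The 6 higher members included 2 whose coding gene was higher as well. 1810008B01Rik (chromosome 8, 124305132 to 124306507, minus strand) lies in Galnt2, which encodes an enzyme that starts O-linked glycan chains. It measured 13.7 RPKM in C/C against 47.4 in Δ/Δ (log2 ratio 1.75; ratio 3.45, interval 3.21 to 3.70). Galnt2 measured 55.8 and 184 RPKM (1.71; ratio 3.29, interval 3.15 to 3.44), so the 2 intervals overlap. Of the bases of the antisense transcript 154 (18.6%) are shared with the coding transcript, and the quotient was 0.754 in C/C and 0.720 in Δ/Δ. The shared bases, all coding sequence of Galnt2, are printed in capitals for the same reason as above.
1810008B01Rik and Galnt2, chr8:124305515-124305668, minus strand: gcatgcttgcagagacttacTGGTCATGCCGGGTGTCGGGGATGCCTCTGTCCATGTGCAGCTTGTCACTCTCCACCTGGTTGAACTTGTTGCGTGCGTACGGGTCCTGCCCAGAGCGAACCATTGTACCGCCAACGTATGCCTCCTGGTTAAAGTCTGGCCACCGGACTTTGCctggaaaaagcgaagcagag
Gm17041 lies in Cish, a feedback inhibitor of cytokine signalling through STAT5. It measured 9.10 RPKM in C/C against 21.8 in Δ/Δ (1.21), and Cish measured 6.22 and 14.5 RPKM (1.16), so this pair too differed by nearly the same factor.

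In the other 4 higher members the coding gene was not called. Gm16252 (ENSMUSG00000085168.2, chromosome 9, 103472084 to 103493249, plus strand) overlaps Tmem108, a transmembrane protein gene, end to end. It measured 1.73 RPKM in C/C against 5.13 in Δ/Δ (log2 ratio 1.34; ratio 2.97, interval 2.44 to 3.66), while Tmem108 measured 6.86 and 3.88 RPKM (-0.75; ratio 0.566, interval 0.528 to 0.606). It also overlaps Bfsp2, a gene of lens filaments with 55.1 RPKM in C/C against 33.4 in Δ/Δ. The antisense gene thus stood higher in Δ/Δ while both coding genes across it stood lower. It shares no base with the Tmem108 transcript used. Yet 569 of its 857 exonic bases lie in exons of coding genes, where reads of the 2 strands cannot be told apart. Gm26782 (chromosome 14, 50870324 to 50880603, plus strand) starts next to Tep1, which encodes a telomerase-associated protein, and measured 1.11 RPKM in C/C against 5.40 in Δ/Δ (1.88; ratio 4.88, interval 3.89 to 6.14). Tep1 measured 3.31 and 5.55 RPKM (0.67), with 14.8% of the antisense bases shared and a quotient of 0.442 in C/C and 0.152 in Δ/Δ. Gm17103, in Tmem39a, a membrane protein gene, measured 1.74 RPKM in C/C against 5.10 in Δ/Δ (1.32), and Tmem39a measured 13.3 and 24.5 RPKM (0.85). Gm16277, at the end of Gfra1, a receptor gene for the growth factor GDNF, measured 4.10 RPKM in C/C against 8.86 in Δ/Δ (1.03), and Gfra1 measured 14.3 and 26.0 RPKM (0.84). Gm16277 was at 0.95 with 1 RPKM added and lost its call.

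**Figure D5:**
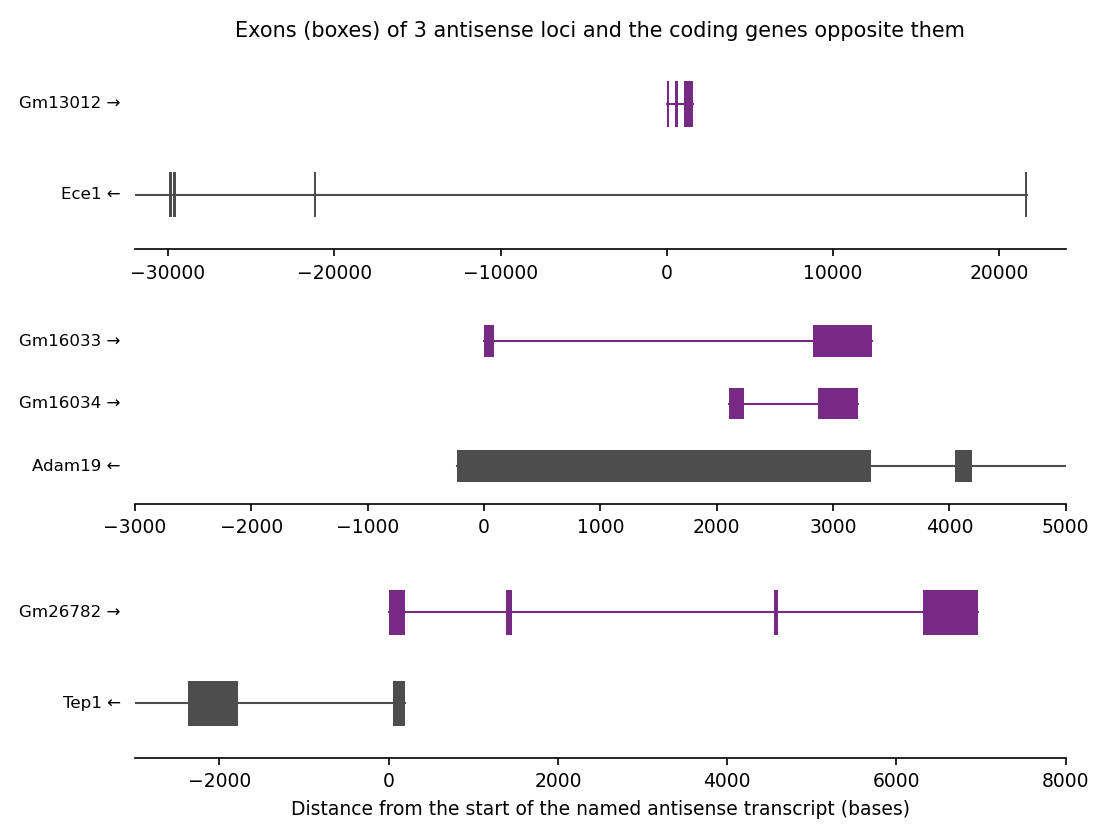
Exons (boxes) of the antisense genes Gm13012, Gm16033, Gm16034 and Gm26782 and of the coding genes opposite them, with exons of all coding transcripts merged, against the distance in bases from the start of the antisense transcript (x axes, each locus to its own scale). No exon of Ece1 faces Gm13012, 1 exon of Adam19 covers nearly all of Gm16033 and Gm16034, and the first exon of Gm26782 faces that of Tep1.

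Some pairs were called on the coding side only. Gm11670, Gm16575, Gm15283 and C920021L13Rik are outside the naming rule and are named here for that alone. In 4 of the 6 the coding gene was lower. Axin2, a feedback inhibitor of Wnt signalling, measured 5.61 RPKM in C/C against 1.98 in Δ/Δ (log2 ratio -1.30), with Gm11670 at -0.99. Ttc7 was at -1.19 with Gm15978 at -0.98, and Sun2, of the nuclear envelope, at -1.01 with Gm16575 at -0.95, so in these 3 the antisense gene lay just inside the rule. The fourth was Tagap, a GTPase-activating protein gene of lymphocytes, at 3.23 RPKM in C/C against 0.887 in Δ/Δ (-1.43). E430024P14Rik, which contains it and shares 51.5% of its bases with it, measured 3.21 and 3.49 RPKM (0.10), a difference of log2 ratios of 1.53. It also overlaps Rsph3a, a cilium gene, at 3.09 and 3.96 RPKM (0.31), from which it differs by -0.21. On the higher side, Hif1a, the oxygen-regulated transcription factor, was at 1.04 with Gm15283 at 0.68, and BC028528 was at 1.18 with C920021L13Rik at 0.73.

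In all, 12 pairs had log2 ratios at least 1 apart, and the counting intervals of the 2 genes did not overlap in any of the 12. This was nearly fixed in advance, since the pairs were picked by that gap and the intervals are narrow. Even among the 231 members within the 2-fold rule, the interval of 173 left out a ratio of 1. The lack of overlap is therefore no support for a gap. Beside those given above (Gm20632, 4930426D05Rik, Gm13012, Gm10602, E430024P14Rik, Gm16252 and Gm26782), the gap was widest for Gm11973. It starts next to Purb, a gene for a single-stranded nucleic acid binding protein, and measured 15.7 RPKM in C/C against 7.65 in Δ/Δ (log2 ratio -0.99), while Purb measured 7.53 and 9.89 RPKM (0.37). The others were A930015D03Rik (-0.91) with H2-T24 (0.10), Gm16845 (-0.86) with Ecsit (0.15), 1600020E01Rik (-0.66) with Pcbp1 (0.36) and Gm16315 (0.91) with Pip5k1c (-0.26). These 4 were named after their values were seen. In 8 of the 12 the antisense gene had the lower ratio of the 2. Where a member overlaps several coding genes and the most abundant one is taken instead, 12 pairs are again at least 1 apart, but only 9 of them are the same. Gm10602, A930015D03Rik and E430024P14Rik leave the set, and Arf4os (by -1.30, with Arf4), Ccdc142os (-1.17, with Mrpl53) and Gm14232 (-1.05, with 1700037H04Rik) enter it.

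The most abundant members overlapped coding genes that were abundant themselves, at 86.2 RPKM or more in C/C. Gm11175 lies wholly in the exon of Jund, a gene of the AP-1 transcription factor, and measured 163 RPKM in C/C against 96.2 in Δ/Δ (log2 ratio -0.76), beside 86.2 and 49.3 RPKM for Jund (-0.80). Gm20628 contains Hist2h3b, a replication-dependent histone gene with near-identical copies, and measured 156 and 179 RPKM (0.19). Hist2h3b measured 183 and 156 RPKM (-0.23), and Hist2h2bb, also across it, 1080 and 1304 RPKM (0.27). 4930558J22Rik contains Hist1h4b, another such gene, and measured 127 and 132 RPKM (0.06). Gm20496, at the end of the immunoproteasome gene Psmb8, measured 139 and 155 RPKM (0.16), beside 284 and 328 RPKM for Psmb8 (0.20). Gm12999, in Atpif1, which encodes an inhibitor of ATP synthase, measured 99.3 and 72.0 RPKM (-0.46), beside 210 and 154 RPKM (-0.44). Gm17134 in Ptbp1 (82.5 and 83.8 RPKM, 0.02) and Gm15884 at Phb2 (49.6 and 44.7 RPKM, -0.15) lay near equal levels in both libraries. Gm11508, which starts next to the splicing factor gene Srsf1, measured 69.7 and 54.2 RPKM (-0.36) while Srsf1 measured 223 and 248 RPKM (0.15). None of these 8 was called.

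Of the 27 members with a proper name, 4 were lower (14.8%, background 6.16%), namely H3f3aos, Tmem147os, Bach2os and Ppp1r18os. Another 23 were within the rule and 0 were higher (background 5.37%). H3f3aos and Tmem147os passed 3 RPKM in C/C only. H3f3aos lost its call by its longest transcript, and Ppp1r18os lost its call after centring and with 1 RPKM added. The share of 14.8% rests on 4 genes and is no support for a direction. Tug1, a long RNA found in many tissues, starts next to Morc2a, a gene of chromatin silencing, and measured 14.8 RPKM in C/C against 18.8 in Δ/Δ (log2 ratio 0.34), beside 12.9 and 15.4 RPKM for Morc2a (0.25). Gt(ROSA)26Sor, the locus widely used for transgenes, measured 11.6 and 14.1 RPKM (0.27), beside 17.0 and 22.2 RPKM for Thumpd3 (0.38). Zeb2os, in the gene of the transcription factor Zeb2, measured 13.3 and 7.67 RPKM (-0.75), beside 46.3 and 29.3 RPKM for Zeb2 (-0.65). Each of these 3 moved the same way as its coding gene, by less than 2-fold.

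Among the other proper names, the lowest ratios were those of Ccdc142os (6.34 RPKM in C/C against 2.93 in Δ/Δ, log2 ratio -0.99) and Phf2os1 (3.29 and 1.46 RPKM, -0.96). Their coding genes were Gm42688 (-0.40; Ccdc142, also overlapped, -0.95) and Phf2, a histone demethylase family gene (-0.67). Below 0 lay also Mypopos (-0.79; Mypop -0.87), Uckl1os (-0.78; Uckl1 -0.79), Cdk19os (-0.70; Cdk19 -0.66) and Itpr3os (-0.45; Itpr3, a calcium channel gene, -0.60). Sp3os was at -0.61, and the coding model across it, Gm11084, was listed at 0 in C/C and at 0.150 RPKM in Δ/Δ. Sp3os also overlaps Sp3, a transcription factor gene, at 60.6 and 59.1 RPKM (-0.04). Arf4os, Taco1os, Scpep1os, Brip1os, Uchl1os, Man2c1os, Rsf1os2, Dgkeos, Proscos, Ube4bos1 and Rab26os lay between -0.26 and 0.19. Of these, Man2c1os (-0.07) faced Sin3a, a co-repressor gene, at -0.52 and Man2c1 at 0.07. Rsf1os2 (-0.06) faced Rsf1, a chromatin remodelling gene, at 0.53 and Clns1a at 0.21, and Rab26os (0.19) faced Rab26 at -0.33. These gaps depend on the transcript taken. By its longest transcript Sin3a was at -0.24, Rsf1 at 0.14 and Rab26 at 0.33 (0.664 RPKM in C/C against 0.961 in Δ/Δ). Arf4os (-0.26) faced Dennd6a at 0.01 and, start to start, Arf4, a vesicle GTPase gene, at 19.4 and 40.6 RPKM (1.05), which was called higher. Rab10os stood at 33.3 RPKM in Δ/Δ (0.47), with Rab10, a vesicle GTPase gene, at 44.4 RPKM there (0.56). Trmt61b, which the annotation lists as antisense although the symbol belongs to a tRNA methyltransferase gene, measured 2.48 RPKM in C/C against 5.06 in Δ/Δ (0.90), beside 0.293 and 0.901 RPKM for Spdya, a cell cycle activator gene (0.82).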

How the data were processed

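RNA from 1 Setdb1 C/C and 1 Setdb1 Δ/Δ culture was sequenced as 101 bp paired-end libraries, per the labels' protocols. The authors deposited a table of 93615 transcripts with 1 RPKM value per library, rounded to 3 decimals, in columns headed Wt and Del taken to mean C/C and Δ/Δ in that order. The submitters' processing notes name TopHat2 2.0.9, bedtools, and mm9 and mm10 as builds. Not given in the sources used here are the build and annotation behind this table and how reads on overlapping transcripts were counted. Transcript identifiers were matched to GENCODE M21 (GRCm38), which succeeded for 89571 (95.7%). The other 4044 were not used.

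A gene was represented by its most abundant transcript (mean RPKM). The coding gene of a pair was the opposite-strand protein-coding gene with the largest overlap of gene spans. RPKM times length, divided by the depth step of the column, came within 0.1 of a whole read for 96.6% of 3915 low values in C/C and 95.8% of 4455 in Δ/Δ. More transcripts had 2 reads than 1 read (641 against 588, and 727 against 522), so intervals took 2 reads as 1 fragment. PCR copies were not marked, so intervals cover counting error only. The steps were tested on simulated data.

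The columns summed to 2165870 RPKM (C/C) and 2013060 RPKM (Δ/Δ). Members and gene lists were chosen with earlier results of these data known. Named genes follow a rule: up to 15 called members in each direction, the 8 most abundant, the 8 farthest from the coding gene, the 5 on each side of the threshold, and all with a proper name. Any other member given with values is marked where it appears. Alternatives changed the added RPKM, scaling, transcript, threshold, size rule and choice of coding gene. Python 3.11.15, pandas 2.3.3, numpy 2.4.6, scipy 1.17.1 and matplotlib 3.10.9 were used.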

Additional observations from a re-analysis of the deposited data

How the results depend on the processing

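No paired analysis was possible because each group had 1 library. Of the 24 called members, none changed direction under another added value, centring or the longest transcript. Calls were lost with 1 RPKM added by Gm14232, Ppp1r18os and Gm16277, after centring by Ppp1r18os, and with the longest transcript by H3f3aos. The number lower went from 18 to 28 with 0.1 RPKM added (11.0%, beside 6.96% of all genes). The median of the members, -0.22, was -0.13 after centring on the median of all genes and -0.15 with a common column sum without the 20 most abundant genes. With a 4-fold rule 4 members were lower and 0 higher, 3 pairs were called the same way (16 by the 2-fold rule), and 4 coding genes were lower and 0 higher. A threshold of 1 RPKM gave 418 members, 29 lower (6.94%; 6.66% of all genes) and 11 higher (2.63%; 6.27% of all genes), 25 pairs called the same way and 38 pairs with a quotient of at least 1. A threshold of 5 RPKM gave 16 such pairs. Members at 3 RPKM in both libraries included 5 lower (2.66%, beside 3.42% of all genes) and 3 higher (1.60%, beside 3.23%). With no filter there were 1723 genes, 33 lower and 13 higher, with a median of 0. The shares over all genes were not worked out for the 4-fold rule or for no filter, so those counts give no direction. The quotient reached 1 in 109 pairs with the exons of all coding transcripts, and the reads were within 2 times the product in 102. Over the 14 pairs with no base in a coding exon, r was 0.39 and 2 pairs were called the same way. The fewer or more genes tested follow from the thresholds, and for the other settings the cause was not tested. With 1 library per group, differences between animals or cultures cannot be told apart from genotype, and without strand, antisense and coding reads cannot be told apart.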

Other observations

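The chromosome rule leaves out Tsix, the antisense gene of Xist on the X chromosome, where Xist is the RNA that coats the inactive X in female cells. Tsix measured 0.0120 RPKM in C/C (9 reads) and 7.20 RPKM in Δ/Δ (5992 reads), and Xist 0.0940 and 23.7 RPKM. The overlapping reads of the 2 genes cannot be told apart here, and the labels give no sex for either culture.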
